A study of Mus musculus with 2 samples.

Results

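Antioxidant defence genes encode the enzymes that remove superoxide and peroxides, the thioredoxin and glutathione systems that supply these enzymes with electrons, and the regulators that set their expression. A list of 37 such genes was chosen by name, and a probe set was assigned to a gene only where the array annotation gave it 1 gene symbol. Of the 37 genes, 33 had such a probe set, among 18193 genes so represented on the array. Total RNA had been prepared from 2 islet graft samples. Each sample came from a kidney capsule that had received 50 islets of wild type C57BL/6 donors, and was taken 6 hours after transplantation. In 1 sample the recipient was a normoglycemic male wild type C57BL/6 mouse. In the other it was a hyperglycemic male mouse heterozygous for Akita, a missense mutation of Ins2 that makes insulin misfold in the beta cells of the recipient's own pancreas. The transplanted islets carried wild type Ins2 in both cases. They are called the WT recipient and the Akita recipient here. Genotype and blood glucose differed together between these recipients, and their effects cannot be told apart. The ages of these recipients, and how many mice contributed to a sample, are not given in the labels.

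Superoxide is converted to hydrogen peroxide by superoxide dismutases, and peroxides are then reduced by catalase, glutathione peroxidases and peroxiredoxins. Many of these genes are controlled by the transcription factor NRF2, encoded by Nfe2l2, which is held in check by KEAP1 and binds the antioxidant response element of its targets. Pancreatic beta cells are known for low expression of catalase and glutathione peroxidase compared with other tissues, whereas kidney tubule cells express many antioxidant genes at high levels. In a graft removed with kidney tissue, a signal can come from islet cells, kidney cells or leukocytes.

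The antioxidant response element has the core TGACNNNGC, where N is any base. This core was searched on both strands of RefSeq promoter windows (GRCm38.p6, 250 bases before to 50 bases after a transcript start), which were found for 32 of the 37 genes. It occurred in at least 1 window of 8 of these 32 genes (25%) and of 13.99% of all 27025 genes with a window. Among the 14452 genes with a window and a probe set of 1 symbol on the array, the share was 16.15%. Among 8 known NRF2 targets with a window, 4 held a match (Gclm, Prdx1, Srxn1 and Txnrd1), as did 4 of the 24 other members with a window (Msrb2, Nfe2l2, Sod1 and Ucp2). The matches upstream of the start are shown for 4 genes whose signals are described below, chosen as a glutathione synthesis gene, a thioredoxin reductase, the NRF2 gene itself and a superoxide dismutase. Capitals mark the core on either strand, and sequences are written 5′ to 3′ on the strand of the gene.
Gclm (chr3:122245413-122245441, + strand): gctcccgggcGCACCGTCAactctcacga
Txnrd1 (chr10:82859104-82859132, + strand): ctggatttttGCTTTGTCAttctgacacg
Nfe2l2 (chr2:75704885-75704913, - strand): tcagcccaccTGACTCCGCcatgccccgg
Sod1 (chr16:90220696-90220724, + strand): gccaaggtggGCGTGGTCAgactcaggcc
In Nfe2l2 the core itself reads along the gene, and in the other 3 genes its reverse complement does. The Txnrd1 match lies before 1 of its 3 listed transcript starts. A match describes these letters only, and binding of NRF2 was not measured.

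The arrays gave MAS5 signals, a linear measure of brightness per probe set. There was 1 array per condition and hence no replicate, so no difference was tested and no p-value is given. A gene was regarded as measured when its brightest probe set reached the array median on at least 1 array (82.9 with the WT and 91.5 with the Akita recipient), and 12538 genes were. As a measure of technical scatter, the log2 ratios of different probe sets for the same gene were compared. Their SD corresponded to 1.54-fold at signals of 64 to 256, 1.27-fold at 256 to 1024, 1.18-fold at 1024 to 4096 and 1.14-fold above 4096. This scatter lies within the arrays and says nothing of the spread between mice. It can hold differences between the sequences that probe sets cover as well as measurement error. The 3′ to 5′ signal ratio of the Actb control, a sign of RNA quality, was 3.54 on the array of the WT recipient and 3.99 on that of the Akita recipient. For the Gapdh control it was 1.30 and 1.76.

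Most antioxidant genes differed by less than 1.5-fold between the grafts. Of the 33 genes, 32 were measured, and these included 0 that were over 2-fold higher and 1 that was over 2-fold lower in the Akita recipient. The shares over all measured genes were 7.56% for over 2-fold higher and 5.54% for over 2-fold lower. The signal of 21 members was lower and that of 11 was higher, and 55.2% of all measured genes were lower. The median log2 ratio of the Akita over the WT recipient was -0.20, and it was -0.06 over all measured genes. Within 1.5-fold were 27 of the 32 members (84.4%) and 71.9% of all measured genes. Members tended to be bright, however, and bright genes scatter less. At a mean signal of 1024 or more, 24 of 26 members (92.3%) and 88.8% of all genes were within 1.5-fold. Median log2 ratios there were -0.16 for the members and -0.05 for all genes. Over all 32 members, 20 differed by more than 1 SD between probe sets of a gene at their signal, 14 lower and 6 higher. For 10 members the difference was beyond 2 SD. The shares of all genes past these SD limits were not computed.

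**Figure D1:**
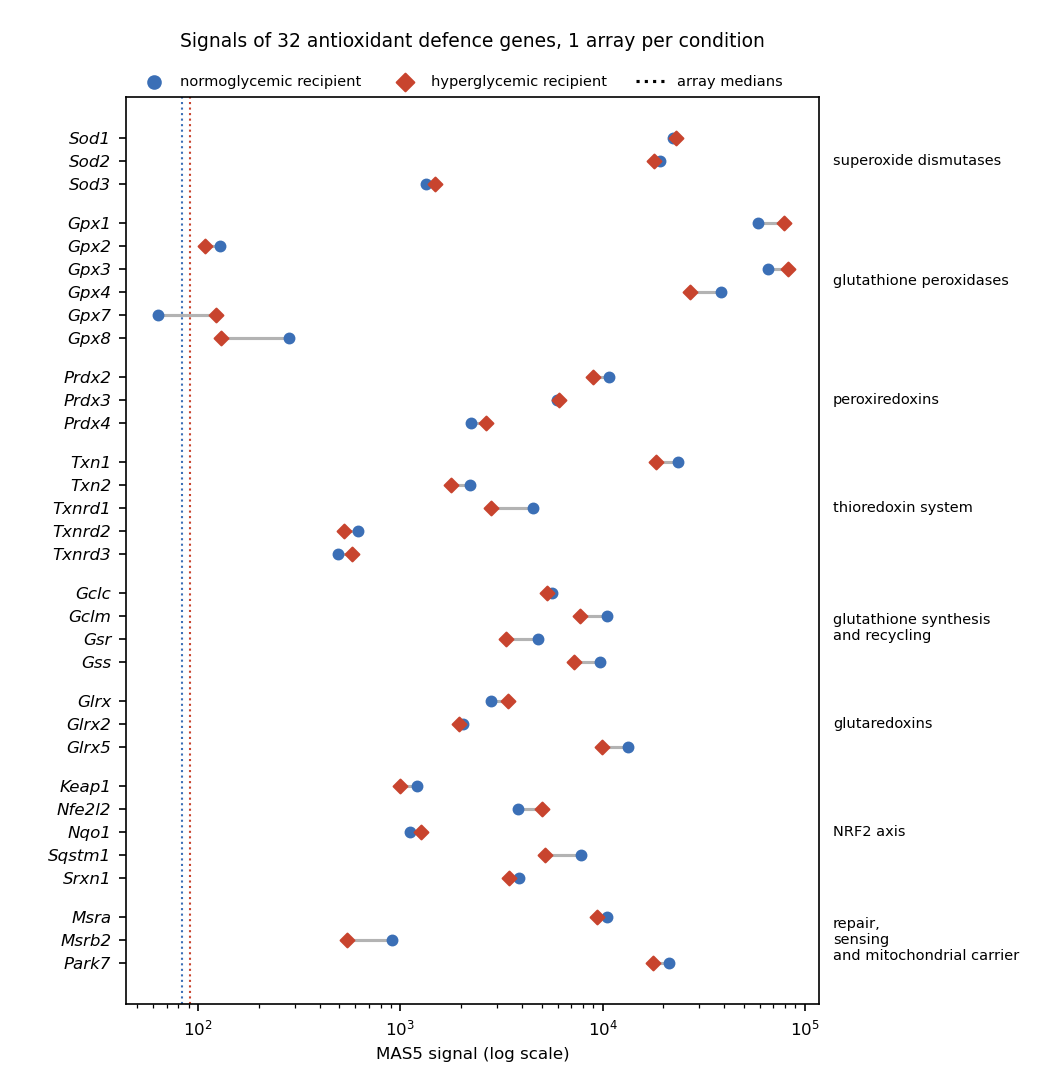
MAS5 signal (x axis, log scale) of the brightest probe set of each of 32 measured antioxidant genes of the normoglycemic WT recipient (blue circles) and of the hyperglycemic Akita recipient (red diamonds), grouped by role, with dotted lines at the array medians. Most pairs nearly coincide. Gpx8 (283 and 129) and Gpx7 (63.0 and 123) are the most widely separated.

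Superoxide dismutases showed little difference on their brightest probe sets. Sod1, the copper and zinc enzyme of the cytosol, had a signal of 22220 in the WT recipient and 23194 in the Akita recipient. Sod2, the manganese enzyme of mitochondria, had signals of 19291 and 18023, and Sod3, the secreted enzyme, 1341 and 1484. All these ratios, from 1.07-fold lower to 1.11-fold higher, were smaller than 1 SD between probe sets of a gene at such signals. Sod1 was slightly higher as deposited, at a log2 ratio of 0.06, and slightly lower, at -0.08, when each array was centred on its median. A second bright probe set of Sod1 had signals of 12296 and 16118 (1.31-fold higher), beyond 1 SD at such signals. The 4 measured probe sets of Sod2 ran from 1.23-fold lower to 1.44-fold higher, the latter on a dim probe set with signals of 130 and 188.

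Glutathione peroxidases differed among themselves. Gpx1, the cytosolic enzyme, had a signal of 58475 in the WT recipient and 79171 in the Akita recipient (1.35-fold higher), and Gpx3, the secreted enzyme made mainly by proximal tubules, 66119 and 82170 (1.24-fold). Very bright genes in general were higher on the array of the Akita recipient. Of the 85 genes with a mean signal of 32768 or more, which include both Gpx1 and Gpx3, 66 were higher, with a median of 1.16-fold. With quantile normalization the log2 ratio of Gpx1 went from 0.44 to 0.14 and that of Gpx3 from 0.31 to -0.004. The direction for Gpx3 thus depended on the scaling.

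Gpx4 reduces lipid hydroperoxides within membranes and protects cells from ferroptosis. Its signal was 38622 in the WT recipient and 27071 in the Akita recipient (1.43-fold lower), and its other probe set was 1.17-fold lower (31259 and 26780). Both probe sets were on the same side, and the first ratio was 2.80 times the SD between probe sets. Without probe sets whose names end in _x_at or _s_at, the log2 ratio of Gpx4 was -0.22 in place of -0.51.

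The remaining glutathione peroxidases were dim. Gpx8, an enzyme of the endoplasmic reticulum that uses cysteine in place of selenocysteine, had a signal of 283 against 129 in the Akita recipient. At 2.19-fold lower it was the only member past 2-fold, with 1 probe set to show it. When the array median was added to both signals, its log2 ratio was -0.73 in place of -1.13, and it no longer passed 2-fold. Gpx7, a relative in the same compartment, went the other way, with 63.0 and 123. It reached the floor in the Akita recipient alone, and was 1.34-fold higher with both signals raised to the floor. That is less than the scatter of 1.54-fold at such signals. Gpx2, known from the gut epithelium, had signals of 128 and 108, within the scatter at that signal.

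Of the peroxiredoxins, thiol enzymes that reduce hydrogen peroxide, only Prdx2, Prdx3 and Prdx4 could be read. Prdx1 was represented by 5 probe sets that carry a further gene symbol, and Prdx5 and Prdx6 had no probe set with 1 symbol. Their values are not analysed here. Prdx2, a cytosolic enzyme abundant in red cells, had signals of 10768 and 8971 in the WT and the Akita recipient (1.20-fold lower) and was 1.29-fold lower on its other probe set. Both measured red cell markers were over 2-fold higher in the Akita recipient, and their part in the values of Prdx2 was not tested. Prdx3 of mitochondria had signals of 5935 and 6117, a difference within the scatter, and was lower with median centring, at a log2 ratio of -0.10. Prdx4 of the endoplasmic reticulum had signals of 2239 and 2648 (1.18-fold higher), and 1 of its 3 measured probe sets was lower.

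On their brightest probe sets, 4 of 5 genes of the thioredoxin system were lower in the Akita recipient, with a median log2 ratio of -0.31, beside 55.2% of all measured genes that were lower. With the median of all measured probe sets of a gene, 3 of the 5 were lower and the median was -0.08. Txnrd1, the cytosolic selenoenzyme that keeps thioredoxin reduced, had a signal of 4551 against 2812 in the Akita recipient (1.62-fold lower). Its second measured probe set was dim and did not show this, with 150 and 163. Txn1, cytosolic thioredoxin, had signals of 23561 and 18393 (1.28-fold lower) on its bright probe set. A dim probe set of Txn1 gave 59.0 and 144, which is the opposite direction, and the median of the pair turned the log2 ratio from -0.36 to 0.46. Here the brightest probe set decides the direction.

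In mitochondria, Txn2 had signals of 2211 and 1781, and its 3 probe sets ran from 1.34-fold lower to 1.01-fold higher. Txnrd2, its reductase, had signals of 618 and 527, and all 4 of its probe sets were lower, each by less than the scatter. Txnrd3, a reductase known mainly from testis, had 490 and 574, and 1 of its 3 probe sets was lower. The differences of Txnrd2 and Txnrd3 were smaller than 1 SD between probe sets of a gene at such signals.

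All 4 genes of glutathione synthesis and recycling had lower signals in the Akita recipient, as did 55.2% of all measured genes. The median log2 ratio of the 4 was -0.44, or between -0.58 and -0.23 across the processing alternatives. Glutamate-cysteine ligase catalyzes the first and limiting step of synthesis. Its modifier subunit, Gclm, had a signal of 10485 against 7704 in the Akita recipient (1.36-fold lower), and was 1.16-fold lower on its other probe set. Its catalytic subunit, Gclc, differed by less than 1 SD between probe sets, with 5647 and 5295 (1.07-fold lower). Gss, which adds glycine in the second step, had signals of 9754 and 7259 (1.34-fold lower), and 1.27-fold lower on its other probe set. Gsr, the reductase that returns oxidized glutathione to its reduced form, had 4800 and 3320 (1.45-fold lower), although its dimmer probe set had 1016 and 1218 (1.20-fold higher). The brighter probe sets of Gclm, Gss and Gsr were more than 2.2 times the SD between probe sets from equal signals.

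Glutaredoxins use glutathione to reduce protein thiols or to carry iron-sulfur clusters. Glrx, the cytosolic enzyme, had a signal of 2808 in the WT recipient and 3417 in the Akita recipient (1.22-fold higher), with 1.21-fold on its other probe set. Glrx5, needed for iron-sulfur cluster assembly in mitochondria, went the other way with 13355 and 9922 (1.35-fold lower). Glrx2 had 2034 and 1940, and its 3 probe sets were 1.05-fold, 1.18-fold and 1.64-fold lower. Glrx3 was below the floor on both arrays (53.5 and 59.8) on its 1 probe set with 1 symbol, and no fold is given.

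The message for NRF2 itself was higher, whereas those of most of its targets on the list were lower. This did not extend to 17 other NRF2 targets measured outside the list. Of these, 10 were higher and 7 lower as deposited, and 6 and 11 with median centring. Nfe2l2 had a signal of 3836 in the WT recipient and 5048 in the Akita recipient (1.32-fold higher), and its dimmer probe set was 1.23-fold higher (281 and 346). Keap1, its inhibitor, had signals of 1203 and 1002 (1.20-fold lower), and its dimmer probe set was 1.61-fold lower. The protein product and the location of NRF2 in the cell were not measured.

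Of 10 known NRF2 targets on the list, 9 were measured, and 8 of these were lower and 1 higher in the Akita recipient. Their median log2 ratio was -0.36, and 55.2% of all measured genes were lower. With the median of all measured probe sets of a gene, 7 were lower, since Txn1 changed sides. The median was then -0.14, with Gsr (-0.14) and Sqstm1 (-0.12) also nearer to 0. Sqstm1, an autophagy receptor that also binds KEAP1, had a signal of 7858 against 5201 (1.51-fold lower), which was 3.25 times the SD between probe sets. Its second probe set was near the floor and higher (95.4 and 123). Srxn1, sulfiredoxin, which restores overoxidized peroxiredoxins, had 3856 and 3458 on its brightest probe set (1.12-fold lower). All 4 of its probe sets were lower, and 1684 against 897 gave the largest difference (1.88-fold lower). Nqo1, a quinone reductase widely used as an NRF2 marker, was the exception, with 1122 and 1260 (1.12-fold higher), less than 1 SD between probe sets.

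Among the enzymes that repair oxidized methionine, Msrb2 of mitochondria had a signal of 907 in the WT recipient and 545 in the Akita recipient (1.67-fold lower), on 1 probe set. Msra differed by less than the scatter, with 10534 and 9403. Park7, a redox-sensitive protein linked to familial Parkinson disease, had 21320 and 17820 (1.20-fold lower), and 1.26-fold lower on its other probe set. Ucp2, a mitochondrial carrier, had no probe set with 1 symbol and is not analysed here.

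**Figure D2:**
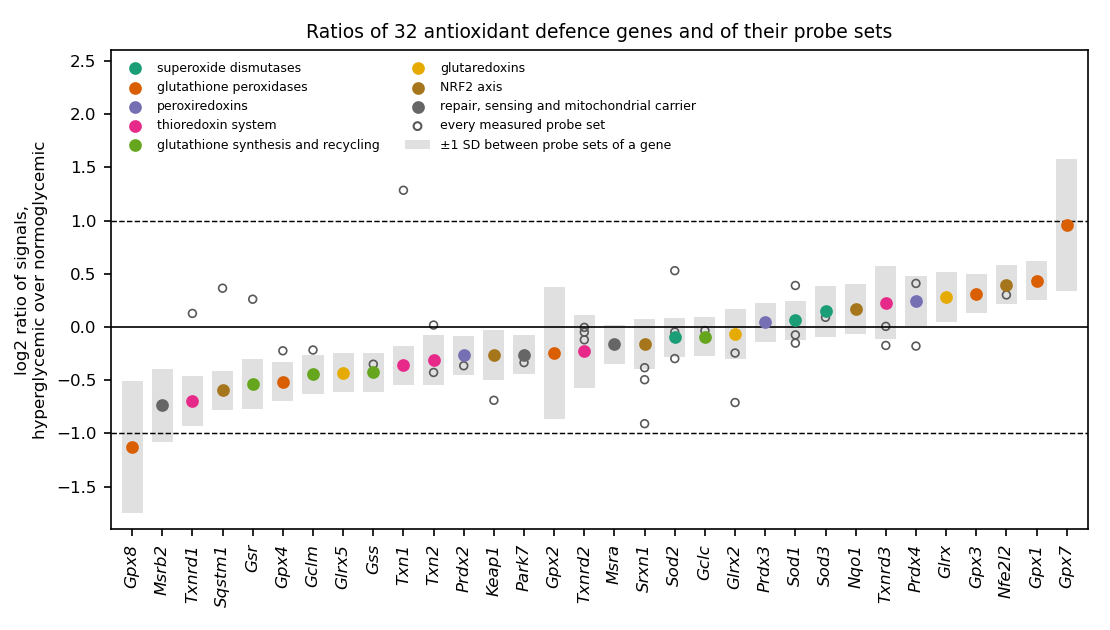
Log2 ratio of the Akita over the WT recipient for 32 antioxidant genes in order of the ratio. Filled points show the brightest probe set, colored by role, open circles every measured probe set, grey bars ±1 SD between probe sets of a gene at that signal, and dashed lines 2-fold. Only Gpx8 passes a dashed line with its brightest probe set, and a dim probe set of Txn1 lies above the upper line.

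Of 22 genes with at least 2 measured probe sets, all probe sets were on the same side in 13. In the other 9 (Sod1, Sod2, Prdx4, Txn1, Txn2, Txnrd1, Txnrd3, Gsr and Sqstm1) they were on both sides. At a limit of 1.5-fold, 4 members were lower (Gpx8, Msrb2, Txnrd1 and Sqstm1; 14.4% of all measured genes) and 1 was higher (Gpx7; 13.7%). Gpx7 no longer passed this limit with both signals raised to the floor, at 1.34-fold.

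**Figure D3:**
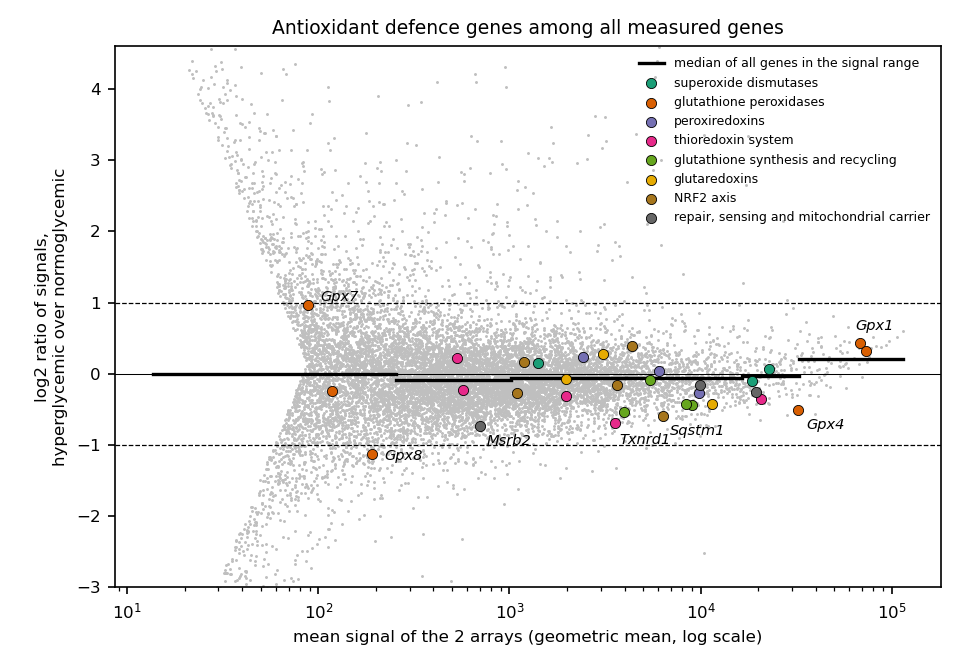
Log2 ratio (y axis) against the mean signal of both arrays (x axis, log scale) for all 12538 measured genes in grey, 123 of which lie beyond the y axis, and for 32 antioxidant genes in color by role. Black lines are medians over all genes in a range of signals and dashed lines mark 2-fold. The medians stay near 0 except above 32768, where the median is 0.21 and Gpx1 and Gpx3 are found.

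When members were grouped by compartment, 6 of 7 measured mitochondrial genes were lower in the Akita recipient (median log2 ratio -0.23), as were 55.2% of all measured genes. The differences of Sod2, Glrx2 and Txnrd2 were smaller than 1 SD between probe sets. Of 5 genes whose products are secreted or reside in the endoplasmic reticulum, 4 were higher (median 0.24), as were 44.8% of all measured genes. Gpx8 was the exception. With quantile normalization 3 were higher, since Gpx3 changed sides. The difference of Sod3 was smaller than 1 SD between probe sets, and that of Prdx4 was 1.03 times the SD. Gpx7 reached the floor in the Akita recipient alone, and with both signals raised to the floor its 1.34-fold was less than the scatter. The 7 measured selenocysteine enzymes were divided, with Gpx1, Gpx3 and Txnrd3 higher and Gpx2, Gpx4, Txnrd1 and Txnrd2 lower. The groups are small and share members with the role groups, and no difference between them was tested.

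Genes of the same pathway outside the list showed no common direction. Of 8 measured partners and competitors of NRF2, 3 were higher and 5 lower, and 0 passed 2-fold with both signals above the floor. Nfe2l3, a relative of Nfe2l2, reached the floor in the WT recipient alone (95.5 and 26.8), and was 1.04-fold lower with both signals raised to the floor. Bach1, a repressor that competes with NRF2 for its elements, had a signal of 1982 in the WT recipient and 3007 in the Akita recipient (1.52-fold higher). Cul3, the ubiquitin ligase scaffold that works with KEAP1, had 4436 and 4019, and Mafg and Maff, small partners of NRF2 on DNA, 1427 and 1277, and 945 and 1127.

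Of 17 other NRF2 targets measured, 10 were higher and 7 lower as deposited (median log2 ratio 0.05), but 6 and 11 with median centring (-0.09). Fth1, the ferritin heavy chain, had signals of 77472 and 100553 (1.30-fold higher). Tkt, an enzyme of the pentose phosphate pathway, had 39818 and 41156, Gstp1, a glutathione transferase, 16155 and 14713, and Mgst1, a microsomal glutathione transferase, 8863 and 13951 (1.57-fold higher). The cystine carrier gene Slc7a11 was over 2-fold higher as deposited, but reached the floor in the Akita recipient alone (42.2 and 106). With both signals raised to the floor it was 1.16-fold higher. Hmox1, heme oxygenase and a common marker of oxidative stress, was named after its values were seen and had 1669 and 1816 (1.09-fold higher).

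Of 16 other peroxide, thiol and repair genes, all measured, 0 passed 2-fold, and 10 were higher and 6 lower (5 and 11 with median centring). Cat, catalase, had a signal of 18607 in the WT recipient and 24158 in the Akita recipient (1.30-fold higher). Txnip, the thioredoxin inhibitor that is strongly induced by glucose in beta cells, had 4489 and 5194 (1.16-fold higher). Msrb1, a methionine sulfoxide reductase, had 4875 and 5335, and Txnl1, a relative of thioredoxin, 4754 and 5924 (1.25-fold higher). Among 7 measured genes of selenoprotein synthesis, 2 were higher and 5 lower. Pstk, the kinase that acts on the selenocysteine tRNA, had 805 and 338 (2.38-fold lower). Sephs2, which makes the selenium donor, had 10641 and 10927, Scly 1458 and 1203, Sephs1 914 and 849, and Secisbp2 972 and 877. Eefsec, the elongation factor for selenocysteine, was named after its values were seen and had 345 and 573 (1.66-fold higher).

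**Figure D4:**
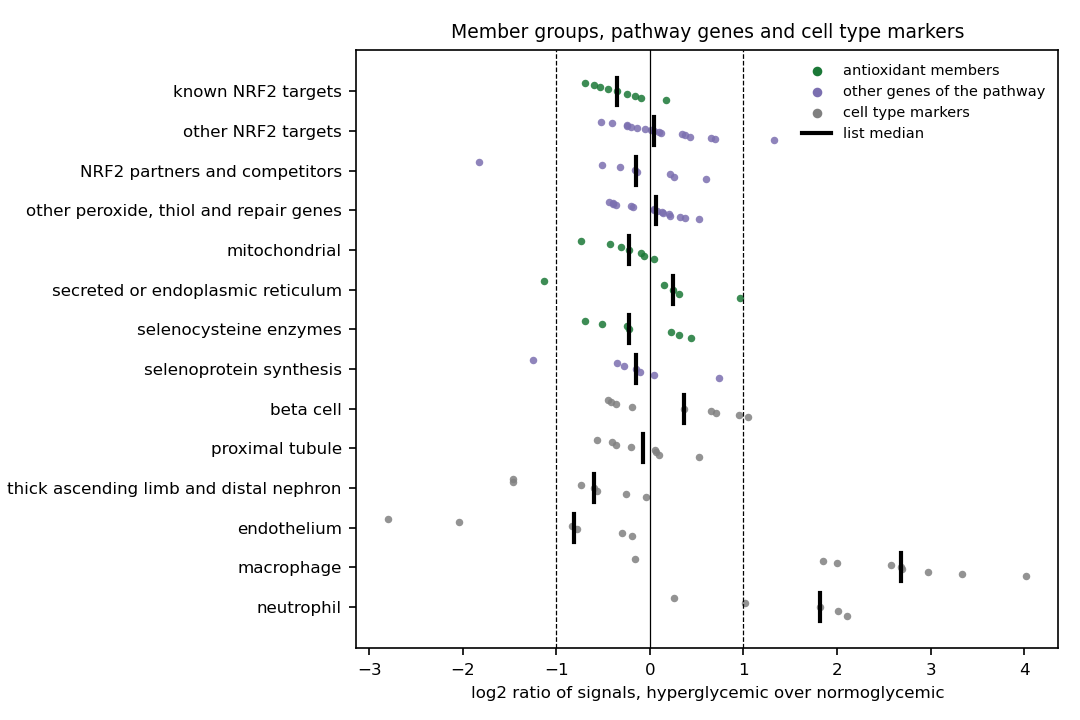
Log2 ratio (x axis) of each measured gene in groups of antioxidant members (green), other genes of the pathway (purple) and cell type markers (grey), with black bars at group medians and dashed lines at 2-fold. Known NRF2 targets among the members have a median of -0.36 and other NRF2 targets 0.05, while macrophage markers have a median of 2.69.

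The makeup of the samples differed beside these ratios. Both had bright islet and kidney genes, such as Ins2 (68738 and 88302) and Iapp, and Kap, a proximal tubule gene (89517 and 128500), Miox and Slc22a12. Of 9 measured macrophage markers, 8 were over 2-fold higher in the Akita recipient, with a summed signal of 10243 against 82012 over 10 markers, and 0 markers had no signal, though Cd163 was below the floor on both arrays. Lyz2, the lysozyme gene of myeloid cells, had signals of 5539 and 55987. Of 5 measured neutrophil markers, 4 were over 2-fold higher (summed signal 4514 against 17361 over 6 markers, including Cxcr2, which was below the floor). All 7 markers of the thick ascending limb and distal nephron were lower (56082 against 42382), as were all 6 measured endothelial markers (3148 against 2090 over 7 markers, including Vwf, which was below the floor). Proximal tubule markers summed to 232703 and 248466, with 4 of 8 higher as deposited and 1 of 8 with median centring. Beta cell markers summed to 139003 and 184816, with 5 of 9 higher, 4 of them over 1.5-fold and 1 over 2-fold. Of the 4 lower ones, 0 passed 1.5-fold. With quantile normalization 4 of the 9 were higher, and the median log2 ratio went from 0.36 to -0.03. The direction of the beta cell group thus depended on the scaling. The median log2 ratio of the proximal tubule group was negative under each scaling, from -0.07 as deposited to -0.22 with median centring. Both measured red cell markers were over 2-fold higher, Alas2 with 668 and 2319 and Hbb-b2 with 559 and 1315, and Hba-a1 was below the floor on both arrays. The part of these cells in the antioxidant values was not tested. In such bulk samples, fewer cells of a type and less RNA per cell cannot be told apart.

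The direction of most members held across the processing alternatives. Of 32 members, 27 stayed on 1 side of equal signal under all 9 alternatives, 7 of them higher and 20 lower. The filters and the raising of signals to the floor could not move a gene to the other side. Other probe set choices could do so only for genes with several probe sets. The count thus rests on fewer alternatives than 9. Gpx7 stayed higher under the 8 alternatives that gave it a ratio. Sod1, Gpx3, Prdx3 and Txn1 changed sides under at least 1 alternative. Nfe2l2 remained between 0.25 and 0.42 on the log2 scale, Gclm between -0.59 and -0.33, and Txnrd1 between -0.84 and -0.28.

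**Figure D5:**
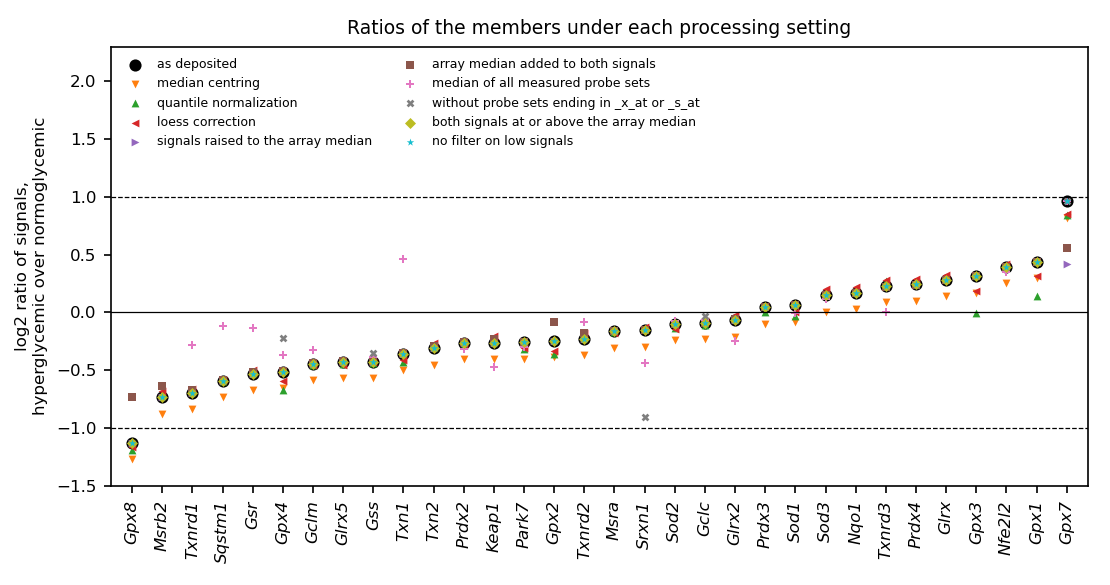
Log2 ratio of each member (x axis, ordered by its value as deposited) under the deposited scale (black circles) and 9 processing alternatives (colored symbols), with dashed lines at 2-fold. Symbols of a gene mostly overlap. Txn1 is the member with symbols farthest apart, between -0.50 and 0.46.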

How the data were processed

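RNA of 2 islet graft samples was measured on 1 MOE430 2.0 array each. The authors deposited 1 table of MAS5 signal intensities on a linear scale, and neither version nor settings of MAS5 are given in the sources used here. This table names no genome build. Both columns were matched to conditions through the labels. Of 45101 probe sets, 64 were controls. Of the others, 34945 carried 1 gene symbol in the platform annotation and 932 several, and only the former were named. Where probe sets shared a gene, the highest mean log2 signal decided. The deposited scale was kept, and the Akita signal was divided by the WT signal. A gene was measured when at least 1 signal reached its array median. Where only 1 did, a fold with both signals raised to 91.5 was also taken. The number of arrays limits the precision, and no test could be had.

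The members and lists were chosen with earlier results of these data known. Named genes were all members, pathway genes past 2-fold with both signals above the floor or among the 4 brightest of their list, and up to 3 of the brightest markers of a cell type. Outside this rule, Nfe2l3 and Slc7a11 were named as past 2-fold with 1 signal below the floor, and Hmox1 and Eefsec after their values were seen. Gapdh carried several symbols and was not used, and Actb had signals of 35841 and 51113. Alternatives were median centring (which shifts log2 ratios by 0.14), quantile normalization, loess (span 0.3, 3 iterations), the floor, the array median as pseudocount, other probe set choices, filters and a limit of 1.5-fold. Functions were tested on simulated data. Software was Python 3.11.15 with statsmodels 0.14.6, pandas 2.3.3, numpy 2.4.6 and matplotlib 3.10.9.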

Additional observations from a re-analysis of the deposited data

How the results depend on the processing

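The median log2 ratio of the members was -0.20 as deposited, -0.34 with median centring, -0.16 with the array median added to both signals and -0.13 with the median of all measured probe sets of a gene. It was negative under every alternative run, as was the median over all genes, which was -0.20 with centring. The member median minus that of all genes was -0.14 as deposited. Across the alternatives it ran from -0.17 (both signals at or above the array median) to -0.08 (median of all measured probe sets). The number of members over 2-fold lower was 1, but 0 with the array median added, since Gpx8 is dim. With a limit of 1.5-fold, 4 members were lower and 1 was higher, Gpx7, which no longer passed it with both signals raised to the floor (1.34-fold). Of 287 values of single members under an alternative, 9 moved by more than 1 SD between probe sets of a gene. These were Gpx1 and Gpx3 with quantile normalization, and Txn1, Txnrd1, Gsr, Srxn1 and Sqstm1 with the median of probe sets. The others were Gpx4 and Srxn1, without probe sets whose names end in _x_at or _s_at. Centring moves every member by the same 0.14, which is under the smallest such SD, and the filters leave most values as they were. No paired analysis was possible because each condition had 1 array, and leaving out an array leaves no comparison. Signals near the array medians, as for Gpx2, Gpx7 and Gpx8, limit what can be said of those genes.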
